A study of Homo sapiens with 6 samples.

Results

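Readthrough genes are annotated across a neighbouring gene and the next one on the same strand, and carry the names of both joined by a hyphen. The 41 described here are the rows of the gene table whose name splits at its only hyphen into names of 2 other rows, and which reached 0.5 FPKM (fragments per kilobase of transcript, scaled to the fragments of the library) in at least 3 of the 6 libraries. BCL2L2-PABPN1 was left out. Of 58825 genes in the table, 120 had such a name. The other 79 stayed below the level, against 15013 genes of the whole table that reached it. Members were thus chosen by their names and selected on the FPKM values described below, so their levels are a description.

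The libraries are poly(A) RNA of PC9, an established human lung adenocarcinoma line with an activating EGFR mutation that is sensitive to the EGFR inhibitor gefitinib. PC9 cells overexpressing the rs3742076_G allele of FOXM1, a forkhead factor that drives genes of mitosis, gave 3 libraries (G libraries), and cells overexpressing its rs3742076_A allele gave 3 libraries (A libraries). Gefitinib was present in both groups, at 100 nM over 24 h, and no library without the drug or without FOXM1 overexpression was analysed here. The question of the series is whether the variant acts on Wnt/β-catenin signalling and so on gefitinib sensitivity. Neither a vector and its promoter nor the number of clones is given in the sources used here, and the labels do not say whether replicates were separate cultures, so p-values measure the spread between libraries, which may be technical.

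The libraries held an estimated 20190000 to 23290000 read pairs in G and 19770000 to 22880000 in A. For this, the most frequent low value of FPKM times length among single-exon genes was taken as a single read pair. FPKM summed over genes to 253706 to 255269 in G libraries and to 270219 to 277596 in A libraries. Log2 values correlated across genes at 0.974 to 0.979 between groups. Epithelial markers (EPCAM, keratins, CDH1, CLDN7) were present in every library, with summed FPKM of 2657 to 2907 in G and 2856 to 3394 in A, while 4 of 5 leukocyte markers and 6 of 7 fibroblast or endothelial markers stayed below the level, with CD68 and COL1A1 as the exceptions. FOXM1 itself was at 14.6, 14.3 and 13.96 FPKM in G libraries and 25.5, 10.5 and 10.1 FPKM in A libraries. Its groups overlapped (log2 difference 0.03, exact two-sided permutation p = 1.0, where 3 against 3 libraries cannot go below 0.1).

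When RNA polymerase II passes the polyadenylation site of a gene without the transcript being cut there, it can run into the next gene, and splicing can then join exons of both genes into a single RNA. The usual product skips the last exon of the upstream gene, with its cleavage site, and the first exon of the downstream gene, which has no splice acceptor. Cleavage and polyadenylation factors set where the transcript is cut, the U1 snRNP protects long transcripts from early cutting, and nonsense-mediated decay removes RNAs whose reading frame ends early, as it does in many joined RNAs.

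The position of the members matched their names. For 41 of 41, both parent genes lay on the same chromosome and strand as the readthrough gene, with the parent named first upstream. All 41 were found in GENCODE release 29 with at least 1 transcript tagged as readthrough, and in 38 every transcript was tagged. The median distance between parents was 2420 bases, against a median of 6787.5 bases for the readthrough-named genes below the level. Parents overlapped in 5 loci, lay less than 10000 bases apart in 24 and lay farther apart in 12, up to 573553 bases for IQCJ and SCHIP1.

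The exon structure of the leading transcript, the one with the highest mean FPKM, was taken from the GENCODE annotation. Reads across the gene boundary were not examined, so splicing there in these libraries was not tested. As annotated, the leading transcript crossed directly from an upstream-parent exon to a downstream-parent exon in 37 of 41 members. It left from an internal splice donor of the upstream gene in 26, entered at an internal acceptor of the downstream gene in 35, and did both in 24. The intron that spans the gene boundary had a median length of 12314 bases. By annotation 22 leading transcripts were protein coding, 12 were nonsense-mediated decay targets, 6 retained an intron and 1 was a processed transcript.

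The junctions below are those of the members on which the results turn. Each gives 15 bases before and 15 bases after the boundary, from GENCODE 29 transcripts, and the capitals mark the side that belongs to the downstream gene.
NME1-NME2: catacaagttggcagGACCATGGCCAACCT
DNAJC25-GNG10: tacgagacactcaagGTCTCTCAGGCAGCT
ISY1-RAB43: cagaaggctcctgggCTGCAGATCTGGGAC
FAM47E-STBD1: gagctgcaggaacagAGCATCTTCAAGAAA
PRR5-ARHGAP8: ttcgcttctatgaggAGCTGCAGAGAGACA
BORCS8-MEF2B: cctccgccaacccagACAAAGATCATTCCA
TMED7-TICAM2: aagagtggcctattgATTGAAAAGAAATGC
BIVM-ERCC5: ggaaaaagatgtctaATATTAGCATTTGGT
SLX1A-SULT1A3: tcagaattagaagagGAACATGGAGCTGAT
SLX1B-SULT1A4: tcagaattagaagagGAACATGGAGCTGAT

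On GRCh38, NME1-NME2 joins chr17:51161258-51161272 to chr17:51166827-51166841 (plus strand), linking NME1 and NME2, which encode nucleoside diphosphate kinases. DNAJC25-GNG10 joins chr9:111631729-111631743 to chr9:111666815-111666829 (plus strand), linking a J-domain cochaperone and a G protein gamma subunit. ISY1-RAB43 joins chr3:129130088-129130102 to chr3:129095155-129095169 (minus strand), linking a spliceosome protein and a small GTPase of membrane traffic. These 3 boundaries were exon junctions that occurred in no transcript of another gene.

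FAM47E-STBD1 joins chr4:76278210-76278224 to chr4:76309144-76309158 (plus strand), where STBD1 encodes a glycogen-binding protein. PRR5-ARHGAP8 joins chr22:44726620-44726634 to chr22:44786457-44786471 (plus strand), linking a subunit of the kinase complex mTORC2 and a GTPase-activating protein. BORCS8-MEF2B joins chr19:19180686-19180700 to chr19:19150750-19150764 (minus strand), linking a subunit of the lysosome-positioning complex BORC and a MADS-box transcription factor. All 3 entered at an internal acceptor of the downstream gene.

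TMED7-TICAM2 joins chr5:115616318-115616332 to chr5:115581301-115581315 (minus strand), linking a cargo receptor of the secretory pathway and an adaptor of Toll-like receptor 4. BIVM-ERCC5 joins chr13:102839789-102839803 to chr13:102852118-102852132 (plus strand), where ERCC5 encodes the XPG endonuclease of nucleotide excision repair. The SLX1A-SULT1A3 junction, from chr16:30197343-30197357 to chr16:30200725-30200739 (plus strand), has the same 30 bases as that of SLX1B-SULT1A4, from chr16:29458001-29458015 to chr16:29461382-29461396 (plus strand). These 2 genes are near-identical copies that join a subunit of a structure-specific endonuclease to a sulfotransferase, so how their reads were divided is uncertain.

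Little sequence sets a readthrough RNA apart from its parents. A median of 0.28% of the exonic bases of the leading transcript lay outside the exons of both parents, and in 19 of 41 members there was no such base. In those members every base of the leading transcript is also a base of a parent exon. Of 36 leading junctions searched in all GENCODE 29 transcripts, 28 occurred in no other gene. The other 8 did occur elsewhere, as in BIVM-ERCC5, whose printed junction is also in ERCC5, and in BOLA2-SMG1P6, whose junction is also in SMG1 and 6 further SMG1 copies and in BOLA2.

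The deposited values of 2 members did not match the name. In 39 members over 95% of the fragments fell in transcripts that overlap exons of both parents, but the share was 5.73% for ARMCX5-GPRASP2 and 0% for IQCJ-SCHIP1. The expressed IQCJ-SCHIP1 transcripts overlapped SCHIP1 exons or neither parent, and IQCJ had no estimate in any library. IQCJ-SCHIP1 had 2.43, 2.42 and 2.99 FPKM in G and 2.68, 2.04 and 2.64 FPKM in A libraries, while SCHIP1, a gene of cytoskeletal scaffolds, had 0.126 to 0.227 FPKM in G and 0.0474 to 0.661 FPKM in A. These 2 rows are therefore kept under their names as rows of the table only. The name ARMCX5-GPRASP2 also stands on a second row, which did not reach the level.

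Most members were low. Their mean over 6 libraries had a median of 2.17 FPKM and ran from 0.514 FPKM for ARMCX5-GPRASP2 to 58.99 FPKM for NME1-NME2. Means were at least 10 FPKM in 3 members, from 1 to 10 in 26 and below 1 in 12. Upstream parents had a median of 3.94 FPKM and downstream parents of 2.68 FPKM, and 30 members lay below their upstream parent, 19 below their downstream parent, 14 below both and 6 above both. The level was reached in all 6 libraries by 21 members, in 4 or 5 by 14 and in 3 by 6, and 9 members had no estimate in 1 or more libraries. No member reached it through the libraries of 1 group only.

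At the edge of the rule, the library that ranked number 3 of ARPIN-AP3S2 was at 0.503 FPKM and that of PPAN-P2RY11 at 0.579 FPKM, against 0.488 FPKM for STX16-NPEPL1 and 0.461 FPKM for TGIF2-RAB5IF, which were not members. STX16-NPEPL1 had 3.25 FPKM in its highest library, which is above the median mean of the members.

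**Figure D1:**
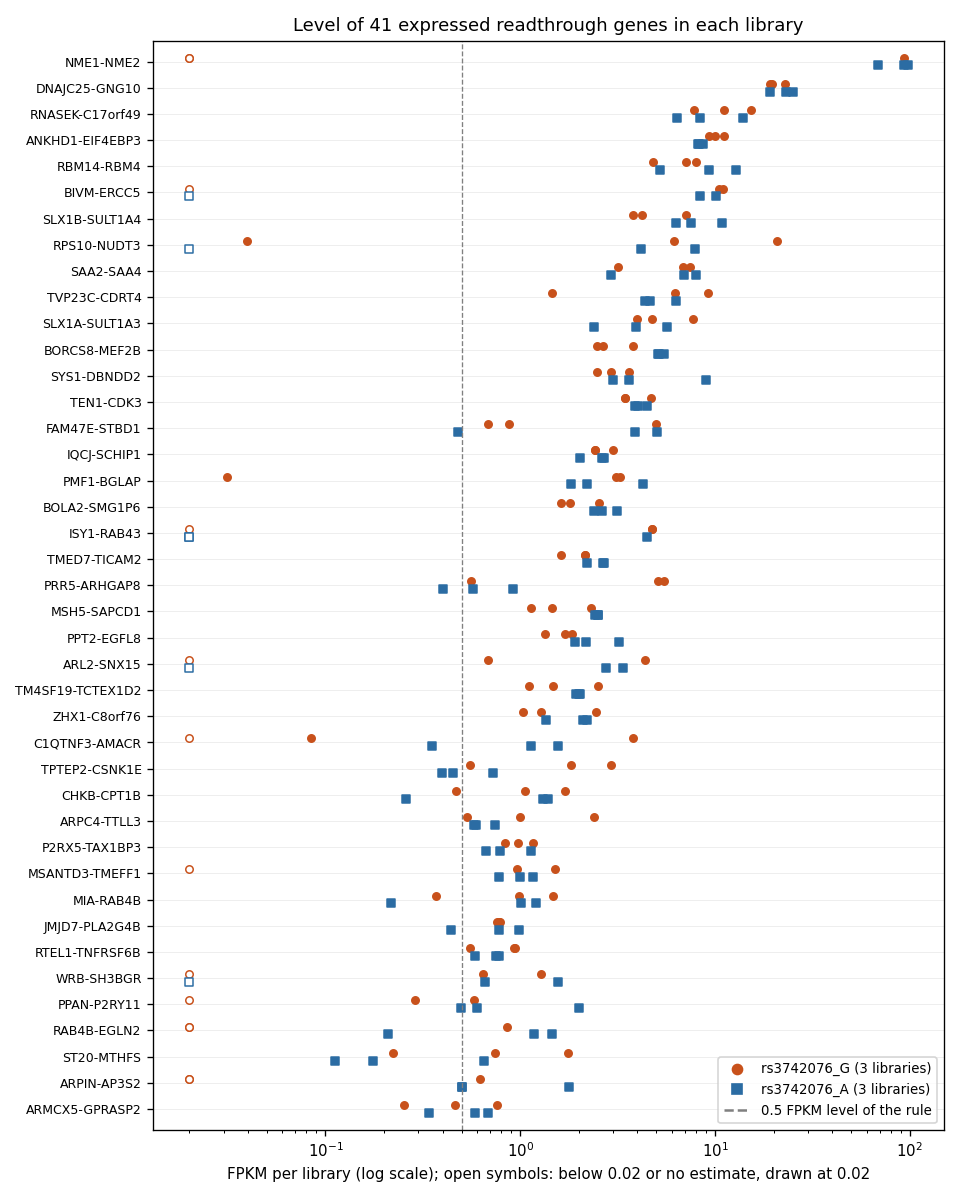
FPKM of each of the 41 readthrough genes (rows, ordered by mean) in every library on a log axis, with rs3742076_G libraries as circles and rs3742076_A libraries as squares; open symbols at 0.02 FPKM stand for values below that or for no estimate. NME1-NME2, BIVM-ERCC5, ISY1-RAB43 and ARL2-SNX15 show libraries several FPKM high beside libraries with no estimate.

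Some members held a steady level of their own. DNAJC25-GNG10 had 19.6, 19.1 and 22.8 FPKM in G libraries and 23.1, 19.3 and 25.2 FPKM in A libraries. It held 28.7% to 35.7% of the fragments of its locus, where locus means the readthrough gene and its parents together and fragments are FPKM times transcript length, written FPM where the value itself is given. All 6 libraries were within a narrow range and the groups overlapped. DNAJC25 averaged 4.83 ± 0.46 FPKM in G and 4.23 ± 0.42 FPKM in A, and GNG10 41.6 ± 2.68 FPKM in G and 46.6 ± 4.39 FPKM in A (SD, n = 3 each). The member thus lay between its parents in every library.

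ANKHD1-EIF4EBP3 carried most of its locus. It had 9.32, 9.96 and 11.2 FPKM in G libraries and 8.65, 8.25 and 8.19 FPKM in A libraries, or 64.1% to 80.7% of the locus fragments. ANKHD1, an ankyrin-repeat scaffold, averaged 4.09 ± 1.33 FPKM in G and 3.14 ± 1.14 FPKM in A libraries (SD, n = 3 each), and EIF4EBP3, an inhibitor of cap-dependent translation, stayed below 1 FPKM. A transcript of 8 exons (ENST00000437495) and one of 36 exons (ENST00000532219) made up this gene, at 14.7 and 8.37 FPKM over 6 libraries. Neither has a direct splice from an ANKHD1 exon to an EIF4EBP3 exon.

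TEN1-CDK3 links a subunit of the telomere-binding CST complex and a cyclin-dependent kinase. It had 3.47, 4.67 and 3.47 FPKM in G libraries and 4.02, 3.87 and 4.49 FPKM in A libraries. TEN1 alone had 0.215 to 0.300 FPKM in G and 0.146 to 0.249 FPKM in A libraries, far below the joined gene in each library. The leading junction also occurs in CDK3, so it does not tell the joined gene from that parent. CDK3 had 5.00, 2.15 and 8.09 FPM in G and 3.03, 4.64 and 2.33 FPM in A libraries. TEN1-CDK3 and CDK3 lay on opposite sides of their means in all 6 libraries.

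TMED7-TICAM2 lay far above its downstream parent. It had 2.14, 1.61 and 2.14 FPKM in G libraries and 2.65, 2.68 and 2.21 FPKM in A libraries. TICAM2 had no estimate in 5 libraries and 0.0099 FPKM in G replicate 1, while TMED7 averaged 18.5 ± 0.37 FPKM in G and 17.9 ± 0.70 FPKM in A (SD, n = 3 each). JMJD7-PLA2G4B, named after its values were seen, held a median of 70.6% of its locus. Its share was less steady, from 65.5% to 73.2% in G and from 40.2% to 85.4% in A libraries. PLA2G4B, a cytosolic phospholipase, was at 0.0161 to 0.0945 FPKM in G and 0.0189 to 0.454 FPKM in A libraries. JMJD7-PLA2G4B and PLA2G4B lay on opposite sides of their means in all 6 libraries. The leading junction of JMJD7-PLA2G4B also occurs in PLA2G4B.

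Other members were present in some libraries and without an estimate in others, and the parents moved the other way. NME1-NME2 had no estimate in G replicates 1 and 2 and 93.5 FPKM in G replicate 3, against 68.9, 93.9 and 97.7 FPKM in A libraries. NME2 had 99.3, 106.2 and 68.8 FPKM in G libraries and 79.7, 80.3 and 79.3 FPKM in A libraries. The 2 libraries without the readthrough gene were thus the 2 highest for the downstream parent. The locus as a whole had 282.8, 299.03 and 313.9 FPM in G libraries and 309.9, 344.2 and 345.4 in A libraries.

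The exchange at this locus showed in single transcripts. The main readthrough transcript, ENST00000555572, had no estimate in G replicates 1 and 2, 95.6 FPKM in G replicate 3 and 68.96, 95.9 and 99.5 FPKM in A libraries. An NME2 transcript, ENST00000393190, had 99.98, 104.8 and 13.2 FPKM in G libraries and 13.8, 15.9 and 14.6 FPKM in A libraries. The NME2 transcript ENST00000393183 likewise had 47.6, 58.7 and 2.66 FPKM in G libraries and 2.13, 2.12 and 1.94 FPKM in A libraries. The 3 transcripts thus divided the libraries the same way, 2 against 4.

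BIVM-ERCC5 had no estimate in replicate 2 of either group. It had 10.5 FPKM, no estimate and 11.0 FPKM in G replicates 1 to 3, and 8.35 FPKM, no estimate and 10.1 FPKM in A replicates 1 to 3. ERCC5 had 1.71, 7.39 and 1.42 FPKM in G and 2.68, 6.85 and 1.56 FPKM in A libraries, so it was high where the readthrough gene had no estimate. The locus stayed at 88.1, 91.2 and 88.96 FPM in G and 90.4, 80.5 and 86.3 in A. The parents overlap on the genome here, and 91.2% of the exonic bases of the leading readthrough transcript are also ERCC5 exon.

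ISY1-RAB43 switched with both parents. It had no estimate, 4.76 and 4.74 FPKM in G libraries and no estimate, 4.50 FPKM and no estimate in A libraries. ISY1 had 8.14, 4.30 and 5.48 FPKM in G and 7.12, 4.93 and 8.16 FPKM in A libraries, and RAB43 had 3.59, 0.906 and 0.811 FPKM in G and 3.72, 1.25 and 4.14 FPKM in A libraries. Both parents were highest in the 3 libraries in which the readthrough gene had no estimate, and the locus ran from 45.4 to 51.3 FPM in G and from 47.8 to 54.1 in A.

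PRR5-ARHGAP8 had 5.45, 5.11 and 0.559 FPKM in G libraries and 0.403, 0.572 and 0.923 FPKM in A libraries. G replicates 1 and 2 were high, and G replicate 3 lay among the A libraries. ARHGAP8 had 3.79, 4.97 and 8.39 FPKM in G and 7.46, 8.24 and 7.12 FPKM in A libraries, lowest in the 2 libraries in which the readthrough gene was high. The locus had 42.9, 49.8 and 53.99 FPM in G and 46.2, 56.4 and 52.6 FPM in A libraries. Its log2 difference was -0.08 ± 0.11 as summed FPM and 0.07 ± 0.09 as summed FPKM.

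Exchanges of this kind recurred in members that were named after their values were seen. FAM47E-STBD1 had 0.683, 0.875 and 4.96 FPKM in G and 5.05, 0.480 and 3.88 FPKM in A libraries, and STBD1 had 5.53, 6.13 and 2.16 FPKM in G and 1.05, 5.64 and 1.56 FPKM in A. SAA2-SAA4 had 6.84, 3.19 and 7.42 FPKM in G and 6.96, 2.91 and 8.03 FPKM in A libraries, and SAA4, a serum amyloid A protein, had 1.69, 5.03 and 0.985 FPKM in G and 1.04, 5.39 and 1.94 FPKM in A. In both loci the downstream parent was highest in the libraries in which the readthrough gene was lowest. SAA2-SAA4 was low in replicate 2 of both groups, as BIVM-ERCC5 was.

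At TVP23C-CDRT4 and WRB-SH3BGR, where the downstream parent was low, the member and that parent lay on opposite sides of their means in 5 and 6 libraries. TVP23C-CDRT4 had 6.24, 1.46 and 9.21 FPKM in G and 4.64, 4.40 and 6.31 FPKM in A libraries, and CDRT4 had 0.733, 2.99 and 0.336 FPKM in G and 0.358, 1.21 and 0.105 FPKM in A. WRB-SH3BGR had 1.27 FPKM, 0.643 FPKM and no estimate in G and no estimate, 1.56 and 0.658 FPKM in A libraries. SH3BGR had no estimate, 0.620 and 1.28 FPKM in G and 0.970 FPKM, no estimate and 0.596 FPKM in A, so it was without an estimate in the 2 libraries in which WRB-SH3BGR was highest. ARL2-SNX15 did not show this exchange, with opposite sides in 3 of 6 libraries. It had 4.39 FPKM, no estimate and 0.685 FPKM in G and 2.74 FPKM, no estimate and 3.38 FPKM in A libraries, with replicate 2 of both groups without an estimate, while SNX15, a sorting nexin, had 1.18, 3.66 and 2.96 FPKM in G and 4.75, 4.06 and 5.10 FPKM in A libraries.

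**Figure D2:**
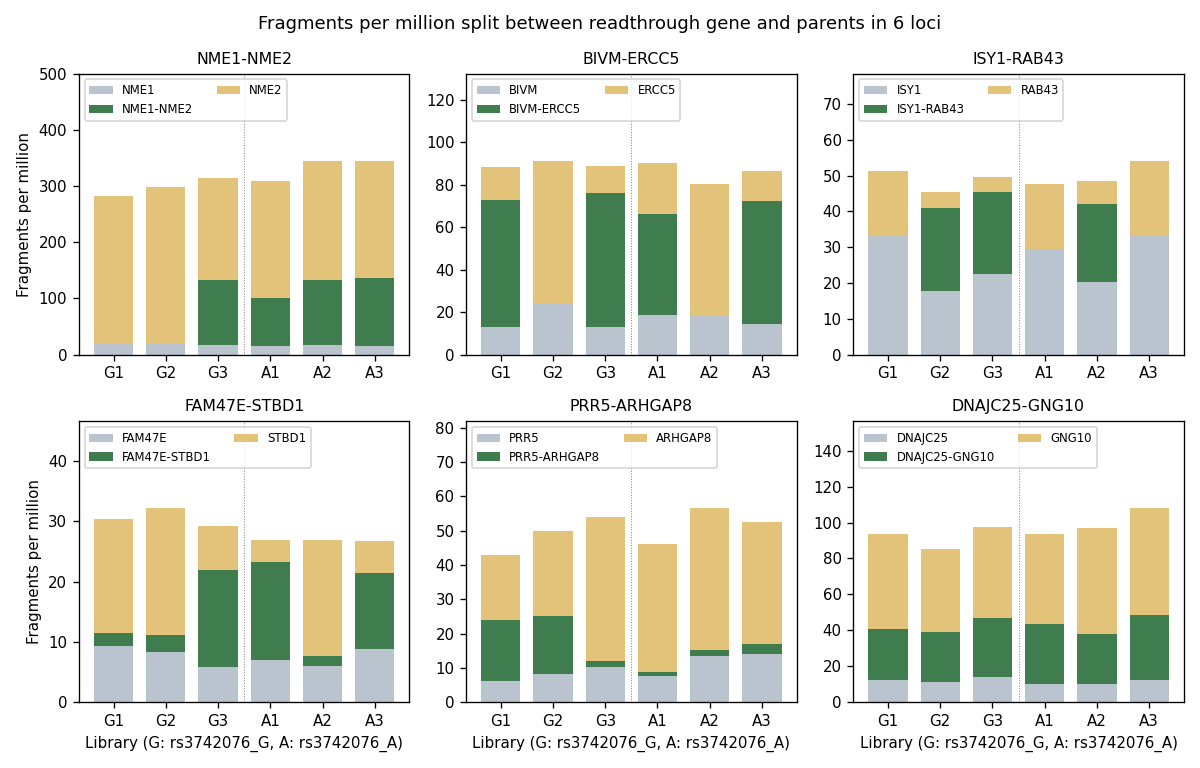
Fragments (FPM, FPKM times transcript length) of the upstream parent (grey), the readthrough gene (green) and the downstream parent (yellow), stacked for each of the 6 libraries in 6 loci, with rs3742076_G libraries left of rs3742076_A libraries. The total varies less than the green part. That part is absent or small in some libraries and large in others, except in DNAJC25-GNG10, where it is steady.

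Over all members the spread between libraries was wide and that of the loci was narrow. The coefficient of variation (SD over mean, 6 libraries) had a median of 0.479 for readthrough genes, 0.186 for upstream parents, 0.374 for downstream parents and 0.101 for the loci, against 0.133 for all tested genes. It was over 0.5 in 20 of 41 members, 2 upstream parents, 18 downstream parents and no locus, against 6.06% of tested genes. The counts of parents include those below the level, which 38 upstream and 32 downstream parents reached. Among genes with a mean of at least 1 FPKM, the median was 0.384 for the 29 members and 0.117 for the 12651 tested genes, and 12 members against 3.25% of genes were over 0.5. The value of a member exceeded that of its locus in 39 of 41 cases, with ANKHD1-EIF4EBP3 and ARMCX5-GPRASP2 as the exceptions. These are descriptions with no test, since members share fragments with their parents.

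The share of locus fragments held by the readthrough gene had a median of 16.6%. It was below 10% in 13 members, from 10% to 50% in 21 and at least 50% in 7. In 14 members it moved by 30 percentage points or more between libraries, and in 10 of these the readthrough gene and its downstream parent lay on opposite sides of their own means in at least 5 libraries. The share is made of these same values, so a wide swing favours opposite sides, and the 10 are a description only. Over all 41, opposite sides in at least 5 libraries held for 17 members against the downstream parent and for 13 against the upstream parent. In all 6 libraries it held for 9 and 2 members. What divides the fragments between overlapping rows was not tested.

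**Figure D3:**
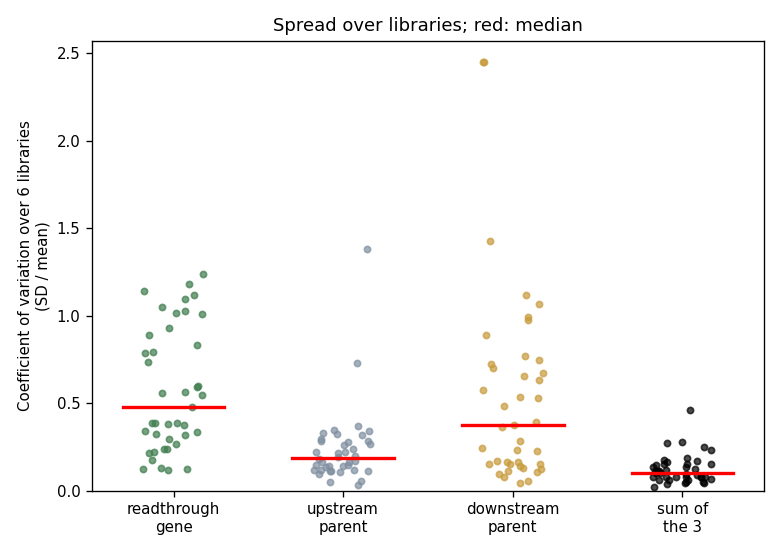
Coefficient of variation over the 6 libraries for the 41 readthrough genes, their upstream parents, their downstream parents and the sum of the 3 in FPM, 1 point per locus, with the median as a red line. Readthrough genes and downstream parents spread widely, up to 1.24 and 2.45, while the sums stay at or below 0.458. The value of 2.45 is that of TICAM2 and of TMEFF1, which each had an estimate in only 1 library. Parents below the level are included.

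Further members lay below a more abundant parent. TPTEP2-CSNK1E joins a pseudogene to the casein kinase 1 epsilon gene and had 2.92, 1.83 and 0.553 FPKM in G and 0.453, 0.396 and 0.722 FPKM in A libraries. CSNK1E was at 37.6, 44.8 and 40.5 FPKM in G and 37.8, 38.3 and 36.9 FPKM in A, so the readthrough gene held a median of 0.45% of the locus. RPS10-NUDT3 had 0.0394, 20.7 and 6.19 FPKM in G and 4.15, 0.0006 and 7.89 FPKM in A libraries, next to RPS10, a protein of the small ribosomal subunit, at 210 to 242 FPKM in G and 245 to 287 FPKM in A. NUDT3, which encodes a phosphohydrolase of inositol pyrophosphates, had 1.49, 0.976 and 6.05 FPKM in G and 4.82, 6.63 and 6.399 FPKM in A. It was lowest where the readthrough gene was highest, but was also low in G replicate 1, where the readthrough gene had 0.0394 FPKM. RPS10-NUDT3 and NUDT3 lay on opposite sides of their means in 4 of 6 libraries. RPS10 has near-identical copies elsewhere in the genome, so its values are uncertain.

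P2RX5-TAX1BP3 joins an ATP-gated channel gene to that of a PDZ-domain protein. It had 1.17, 0.974 and 0.839 FPKM in G and 0.789, 1.14 and 0.664 FPKM in A libraries, while TAX1BP3 averaged 50.8 ± 1.14 FPKM in G and 59.6 ± 5.74 FPKM in A (SD, n = 3 each). ARPC4-TTLL3 joins a subunit of the Arp2/3 actin nucleator to a tubulin glycylase and had 0.534, 2.38 and 0.999 FPKM in G and 0.579, 0.594 and 0.739 FPKM in A libraries. RNASEK-C17orf49 joins the ribonuclease kappa gene to that of a chromatin protein, with 7.79, 11.1 and 15.3 FPKM in G and 6.38, 13.8 and 8.39 FPKM in A libraries. RBM14-RBM4 joins genes of RNA-binding proteins of paraspeckles and of splicing, with 4.82, 7.07 and 7.95 FPKM in G and 12.7, 5.19 and 9.31 FPKM in A libraries. RNASEK averaged 55.1 ± 10.6 FPKM in G and 66.2 ± 6.34 FPKM in A, ARPC4 averaged 23.9 ± 8.10 FPKM in G and 30.9 ± 9.96 FPKM in A, and RBM4 averaged 13.8 ± 0.43 FPKM in G and 16.6 ± 1.61 FPKM in A (SD, n = 3 each). In each of the 4 readthrough genes the groups overlapped, and each lay below the more abundant parent.

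Between the alleles, no readthrough gene passed the test. By limma-trend on log2(FPKM + 1), with Benjamini-Hochberg adjustment over 15013 genes and an adjusted p under 0.05 as the threshold, 0 of 41 members were called. The background was 9 of 15013 genes called (0.0599%), 1 higher in G (0.00666%) and 8 lower in G (0.0533%). At an unadjusted p under 0.05 there were 5 members, 1 higher and 4 lower, against 16.0% of tested genes, and the smallest adjusted p was 0.175. The log2 difference was positive in 16 members and negative in 25, with a median of -0.10 against 0.03 over all tested genes, of which 43.8% were negative. Its standard error had a median of 0.306 in members and 0.099 over all genes.

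BORCS8-MEF2B had the smallest p. It had 3.80, 2.65 and 2.49 FPKM in G libraries and 5.19, 5.11 and 5.45 FPKM in A libraries. The groups did not overlap, and the log2 difference was -0.66 ± 0.13 (SE; limma adjusted p = 0.175). The locus differed less, by -0.36 ± 0.13 as summed FPKM (limma adjusted p = 0.272) and by -0.24 ± 0.14 as summed FPM (adjusted p = 0.438). Its fragments were 15.06, 17.99 and 11.9 FPM in G and 17.1, 17.3 and 18.6 FPM in A libraries, with overlap. BORCS8 averaged 1.34 ± 0.27 FPKM in G and 1.13 ± 0.08 FPKM in A (SD, n = 3 each), and MEF2B had 0.332, 2.27 and 0.688 FPKM in G and 0.792, 0.652 and 0.897 FPKM in A libraries. A transcript annotated as a nonsense-mediated decay target, ENST00000602804, had 1.11, 2.22 and 1.42 FPKM in G and 5.21, 2.502 and 3.33 FPKM in A libraries, with a log2 difference of -0.84 (limma adjusted p = 0.627 over transcripts).

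The members with the largest positive differences were set by few libraries. The log2 difference was 1.29 ± 0.55 for PRR5-ARHGAP8 (limma adjusted p = 0.321) and 0.77 ± 0.33 for TPTEP2-CSNK1E (adjusted p = 0.323), where G replicates 1 and 2 were the high libraries in both. It was 0.86 ± 0.93 for ISY1-RAB43 and 0.61 ± 1.26 for RPS10-NUDT3. ST20-MTHFS, which ends in the gene of a folate enzyme, had 1.76, 0.222 and 0.740 FPKM in G and 0.112, 0.175 and 0.654 FPKM in A libraries, with a difference of 0.48 ± 0.31. In all 5 the groups overlapped.

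The largest negative difference was that of NME1-NME2, at -4.25 ± 1.74 (SE; limma adjusted p = 0.307). It rests on the 2 G libraries with no estimate, and its size depends on the pseudocount of 1. Without G replicate 3 the gene was called (log2 difference -6.44, limma adjusted p = 0.000788), while in all 6 libraries the log2 difference of the locus was -0.16 ± 0.06 as summed FPM (adjusted p = 0.307) and -0.44 ± 0.18 as summed FPKM (adjusted p = 0.304).

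Further negative differences were smaller. ARPIN-AP3S2, which joins an Arp2/3 inhibitor gene to that of an adaptor protein subunit, had 0.0086 FPKM, no estimate and 0.622 FPKM in G and 0.503, 0.502 and 1.77 FPKM in A libraries (difference -0.65 ± 0.31). PPAN-P2RY11, which joins a ribosome biogenesis gene to that of an ATP receptor, had 0.289 FPKM, 0.579 FPKM and no estimate in G and 1.99, 0.496 and 0.598 FPKM in A libraries (difference -0.60 ± 0.30). RAB4B-EGLN2, which joins an endosomal GTPase gene to that of a prolyl hydroxylase of hypoxia signalling, had no estimate, 0.0077 and 0.853 FPKM in G and 1.46, 1.17 and 0.210 FPKM in A libraries (difference -0.60 ± 0.35). In these 3 the groups overlapped, and 2 of the 3 stand at the edge of the level. Their upstream parents were higher throughout, as ARPIN averaged 8.74 ± 0.41 FPKM in G and 7.54 ± 0.45 FPKM in A, PPAN 3.99 ± 0.29 FPKM in G and 3.49 ± 1.16 FPKM in A, and RAB4B 3.52 ± 0.16 FPKM in G and 2.95 ± 0.51 FPKM in A (SD, n = 3 each).

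SLX1B-SULT1A4 had 4.23, 7.12 and 3.79 FPKM in G and 6.33, 10.9 and 7.52 FPKM in A libraries (difference -0.62 ± 0.25, limma adjusted p = 0.307). Its copy SLX1A-SULT1A3, named after its values were seen, had 4.75, 3.99 and 7.75 FPKM in G and 5.70, 3.93 and 2.41 FPKM in A libraries (difference 0.39 ± 0.30). SULT1A4 had 11.3, 5.90 and 1.53 FPKM in G and 5.06, 0.710 and 0.850 FPKM in A libraries. The copies thus had differences of opposite sign, and both groups overlapped.

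Groups did not overlap in 5 members, against 23.4% of tested genes (14.8% higher and 8.64% lower in G). ANKHD1-EIF4EBP3 was higher in G in all libraries (difference 0.25 ± 0.08, limma adjusted p = 0.227), and its summed locus FPKM likewise (0.27 ± 0.07, adjusted p = 0.210). The 4 with lower G libraries were BORCS8-MEF2B, TMED7-TICAM2 (-0.25 ± 0.11), and PPT2-EGFL8 (-0.37 ± 0.16) and MSH5-SAPCD1 (-0.42 ± 0.16), of which the last 2 were named after their values were seen. The summed locus FPKM of these 4 did not follow as closely. It differed by -0.36 ± 0.13 for BORCS8-MEF2B, 0.0013 ± 0.05 for TMED7-TICAM2, -0.0035 ± 0.06 for PPT2-EGFL8 and 0.27 ± 0.10 for MSH5-SAPCD1. None of the 5 members passed the test.

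At MSH5-SAPCD1 the parents lay on the other side. The readthrough gene had 1.46, 2.32 and 1.14 FPKM in G and 2.52, 2.43 and 2.497 FPKM in A libraries. SAPCD1 had 1.41, 2.67 and 2.86 FPKM in G and 0.560, 0.812 and 0.590 FPKM in A libraries (log2 difference 0.98 ± 0.19, limma adjusted p = 0.175). MSH5, a meiotic mismatch-repair homologue, averaged 2.70 ± 0.05 FPKM in G and 2.19 ± 0.12 FPKM in A (SD, n = 3 each; difference 0.21 ± 0.07). Both parents had G libraries above A libraries and the readthrough gene below, and the locus depended on the measure. Its summed FPKM was 5.63, 7.64 and 6.70 in G and 5.35, 5.30 and 5.34 in A libraries, without overlap (difference 0.27 ± 0.10, limma adjusted p = 0.290). Its summed fragments ran from 25.3 to 29.9 FPM in G and from 24.1 to 25.5 FPM in A, with overlap (difference 0.10 ± 0.08).

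**Figure D4:**
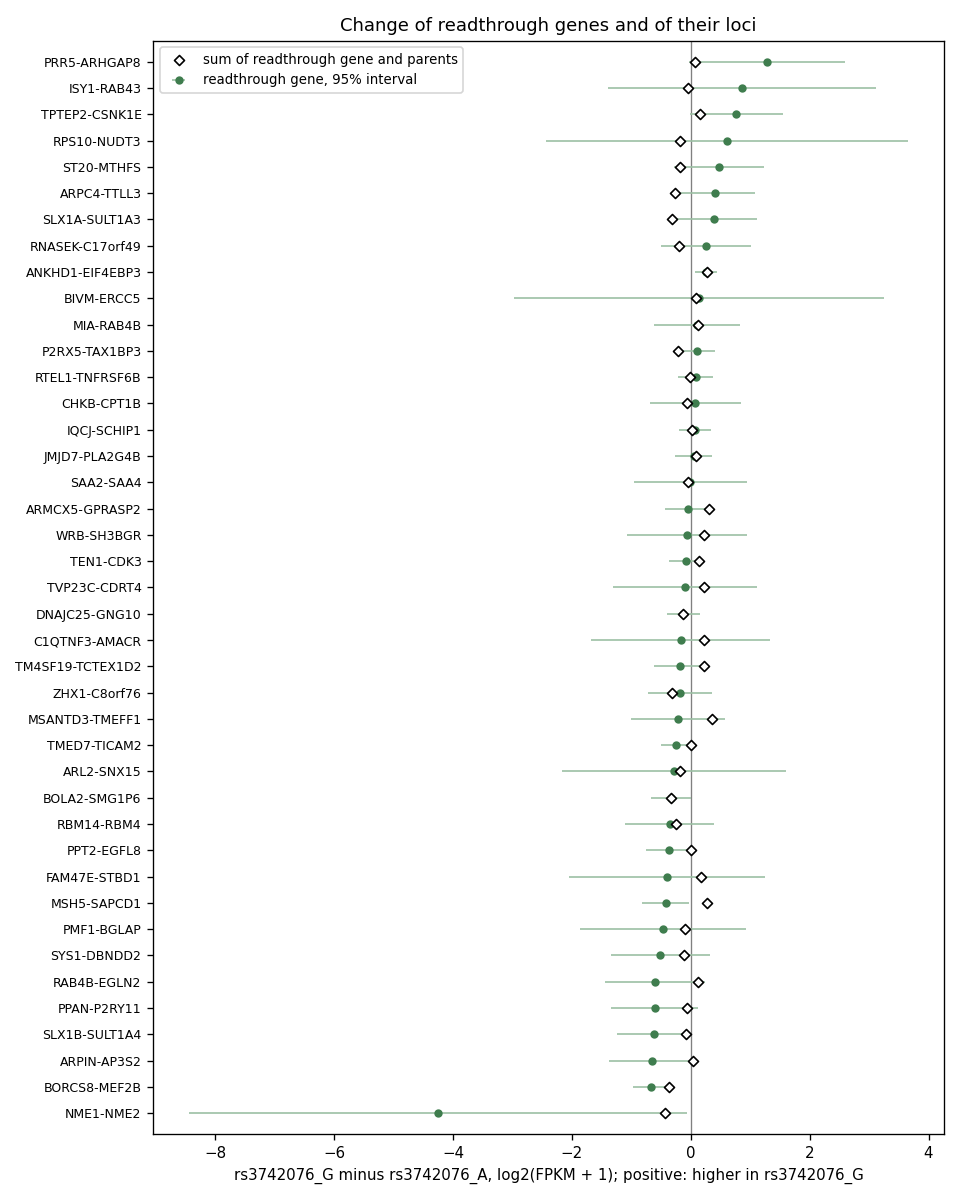
Log2 difference, rs3742076_G minus rs3742076_A on the log2(FPKM + 1) scale, for each of the 41 readthrough genes (green points with 95% intervals from limma) and for the summed FPKM of the readthrough gene and its parents (open diamonds). Sums lie between -0.44 and 0.36, whereas readthrough genes run from -4.25 to 1.29; MIA-RAB4B and RAB4B-EGLN2 share a parent and 1 sum.

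The parents gave no call either. Of 81 distinct parents, 69 reached the level, 0 were called (background 0.0599%) and 13 had an unadjusted p under 0.05 (background 16.0%), with a smallest adjusted p of 0.175 (limma). Their median log2 difference was -0.02, and 34 of 69 were positive. A member and its upstream parent had differences of opposite sign in 27 of 38 cases where both were tested, and a member and its downstream parent in 21 of 32. NME1 had 6.20, 5.70 and 4.93 FPKM in G and 4.26, 4.74 and 4.49 FPKM in A libraries (difference 0.26 ± 0.09, limma adjusted p = 0.261), and C1QTNF3, whose readthrough partner C1QTNF3-AMACR was named after its values were seen, averaged 4.71 ± 1.16 FPKM in G and 3.20 ± 0.10 FPKM in A (SD, n = 3 each).

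Ratios within a library compare a member with its parent at the same scale. The log2 ratio of readthrough to upstream parent, with 0.1 FPKM added to each, had a median of -1.15, and that to the downstream parent of -0.21, which became 0.07 with 1 FPKM added. In 5 loci the ratio to the upstream parent was lower in every G library than in every A library, and in 3 loci the ratio to the downstream parent was. In no locus of the 41 was it higher in every G library. Among single tested genes, groups did not overlap in 8.64% with G lower and in 14.8% with G higher. No such share was worked out for ratios, so the counts of loci are a description. For BORCS8-MEF2B over BORCS8 the log2 ratio was 1.46, 0.68 and 1.13 in G and 2.21, 2.04 and 2.11 in A libraries (exact two-sided permutation p = 0.1, the smallest that 3 against 3 allow). For DNAJC25-GNG10 over DNAJC25 it was 2.01, 2.10 and 2.08 in G and 2.498, 2.25 and 2.39 in A libraries (exact permutation p = 0.1).

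Sums over the locus removed most of the spread but gave no call. With each readthrough gene and its parents as 1 row of summed FPKM, 0 of 40 loci were called (background 9 of 14943 rows, 0.0602%) and 12 had an unadjusted p under 0.05 (background 16.0%). As summed FPM, 0 of 40 were called (background 0.0602%) and 11 had an unadjusted p under 0.05 (background 16.0%). In that fit all other genes, and so the background, stayed in FPKM. RBM14-RBM4 had 28.2, 29.1 and 30.2 summed FPKM in G and 36.9, 31.1 and 37.0 in A libraries (log2 difference -0.25 ± 0.08, limma adjusted p = 0.231). BOLA2-SMG1P6, named after its values were seen, had 23.2, 25.3 and 24.4 FPM in G and 28.99, 31.1 and 32.2 in A libraries (difference -0.33 ± 0.06, adjusted p = 0.169), in a gene family with near-identical copies.

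Single transcripts did not separate the alleles. Of 145 transcripts of the members, 67 from 40 members reached the level and 0 were called (limma adjusted p over 42095 transcripts, background 39 called, 0.0926%). An unadjusted p under 0.05 was found in 5, against 7.46% of all transcripts tested, and the smallest adjusted p was 0.581, for the MSH5-SAPCD1 transcript ENST00000493662 at 0.678, 0.719 and 0.0136 FPKM in G and 1.59, 1.39 and 1.49 FPKM in A libraries. Across 304 tested transcripts of the loci, parents included, 0 were called.

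The authors' deposited table marks 3 members as significant, which are PRR5-ARHGAP8, TPTEP2-CSNK1E and ARPC4-TTLL3, against 0.793% of the genes tested here. In the authors' deposited table the fold ratio of G over A is 5.86 for PRR5-ARHGAP8 with a q-value of 0.0222, 3.38 for TPTEP2-CSNK1E with a q-value of 0.279 and 2.05 for ARPC4-TTLL3 with a q-value of 0.922. The authors' deposited table gives a p-value under 0.05 for 8 members (4.82% of tested genes) and a q-value under 0.05 for 1 (0.253%). For NME1-NME2, the member with the widest difference in limma, the authors' deposited table gives a p-value of 0.395.

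Genes of the machinery that cuts, protects or degrades such RNAs did not pass the test between alleles. All 38 listed cleavage, polyadenylation and termination genes were tested, 0 were called and 4 had an unadjusted p under 0.05, with 26 positive differences and a median of 0.04. Over all tested genes 0.0599% were called, 16.0% had an unadjusted p under 0.05 and 43.8% had a negative difference. SCAF4, which limits the use of early polyadenylation sites, averaged 4.90 ± 0.46 FPKM in G and 3.72 ± 0.60 FPKM in A (SD, n = 3 each). Its difference was 0.33 ± 0.12, with a limma adjusted p of 0.269. CDK12, a kinase of the polymerase tail, differed by 0.18 ± 0.07 (adjusted p = 0.301). The G libraries of both genes lay above their A libraries, and neither gene passed the test.

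Of 6 U1 snRNP genes 0 were called, 4 differences were positive and the median was 0.07. LUC7L3, a U1-associated splicing factor, differed by 0.16 ± 0.06, SNRPC, the U1 C protein, by -0.12 ± 0.06 and LUC7L2 by 0.09 ± 0.06 (limma adjusted p = 0.301, 0.355 and 0.476). Of 19 nonsense-mediated decay genes 0 were called, 3 had an unadjusted p under 0.05 against 16.0% of all tested genes, 10 differences were positive and the median was 0.01. SMG1, the kinase of this pathway, averaged 5.02 ± 0.27 FPKM in G and 3.68 ± 0.47 FPKM in A (SD, n = 3 each). Its difference was 0.36 ± 0.09, with a limma adjusted p of 0.204. As SMG1 shares sequence with its copies and BOLA2-SMG1P6, how reads were divided among them is uncertain. UPF2 and NBAS, other factors of the pathway, differed by 0.23 ± 0.06 and 0.22 ± 0.06 (adjusted p = 0.216 for both). The medians of the 3 lists lay close to that of all tested genes.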

How the data were processed

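Poly(A) RNA of 6 PC9 libraries was measured, 3 per allele. The submitters' processing notes name HISAT2 2.0.4, StringTie 1.3.4d and cutadapt 1.9, without their roles. The notes name a mouse build, but identifiers are human, and 94.6% of 206348 transcripts found in GENCODE 29 had the same GRCh38 position. No source used here gives the strand setting of the authors' quantification or their test. The deposited tables hold FPKM per gene and transcript, with 0.0001 where there was no estimate. Per the file headers, the deposited tables also hold a fold ratio, a log2 ratio, a p-value and a q-value.

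Transcript FPKM times length, summed per gene, gave fragments (FPM). Gene FPKM kept a constant ratio to it, within 1%, in 16694 of 16694 genes above 0.1 FPKM throughout. Fragments assigned to another overlapping gene therefore move it. Of low values, 27.89% to 30.05% were whole reads within 0.02, so no count model was used. The depths are estimates, and their precision limits low genes most.

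Genes at 0.5 FPKM in at least 3 libraries were tested as log2(FPKM + 1), G minus A, with limma 3.58.1 (trend, R 4.3.3) and Benjamini-Hochberg adjustment. The pseudocount understates changes of low genes. Fits were tested on simulated data. Python 3.11.15 with pandas 2.3.3 joined the tables. Exact permutation tests served ratios and FOXM1. Members and lists were chosen with earlier results of these data known. The naming rule took 21 members: those called, the 6 highest, the 6 largest differences per direction, the 2 extremes of each parent ratio and the edges of the level. Of each list it took the 3 genes with the smallest p. One gene so chosen is not reported here. Alternatives changed the pseudocount, filter, scaling, variance model, weights, replicate block and libraries.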

Additional observations from a re-analysis of the deposited data

How the results depend on the processing

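The direction of the members' median log2 difference held in every alternative fit, between -0.19 and -0.02. Readthrough genes called numbered 0 in the reported fit and in every alternative fit except without rs3742076_G replicate 3, where NME1-NME2 was called, so that leaving out replicates gave 0 to 1. The q-value of the authors' deposited table gave 1 and its p-value 8. Parents called stayed at 0. Locus sums were fitted only at the reported settings with all 6 libraries, as FPKM and as FPM, and 0 were called in each. All genes called, 9 in the reported fit, numbered 14 with the filter at 1 FPKM, 1 with no filter, 15 with equal sums, 5 with quantile normalization, 4 with no variance trend, 14 with array weights and 2 to 8 without 1 library. Equal sums moved the median of all genes to 0.11 and TEN1-CDK3 to 0.0055, against -0.08. Leaving out 1 library gave log2 differences of both signs for 14 of the 41 members. These included 3 named by the rule, which were BIVM-ERCC5 (-0.98 to 1.32), RPS10-NUDT3 (-0.39 to 1.80) and IQCJ-SCHIP1 (-0.0233 to 0.1158), and the cause was not tested. The other 11 included C1QTNF3-AMACR (-0.90 to 0.23), TVP23C-CDRT4 (-0.52 to 0.50), ARL2-SNX15 (-0.97 to 0.25) and WRB-SH3BGR (-0.41 to 0.27). Scaling without mitochondrial genes and locus sums as fragments were chosen after seeing the data and changed no call of a member. With the replicate block, 0 of all genes and 0 members were called, and deviations of same-numbered libraries correlated at 0.0573, 0.0083 and 0.0249, so the numbers were not taken to pair the libraries. Low depth limits members under 1 FPKM.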
